A study of Mus musculus with 13 samples.

Results

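The 9 genes described here encode the invariant chains of the T cell receptor (TCR) complex and the first proteins that act after the receptor is engaged: Cd3e, Cd3d, Cd3g and Cd247 (the receptor subunits) and Lck, Zap70, Lat, Lcp2 and Themis (the proximal signalling genes). They were taken by name from the deposited table of 43629 genes, all 9 were found there, and all 9 were among the 15872 genes tested. RNA sequencing values were available for 13 mouse libraries made from single-cell suspensions. There were 5 Atm-/- thymic lymphomas from 5 mice of the 129S6/SvEv strain, which lack the DNA damage kinase ATM. The 5 Rag2c/c p53-/- thymic lymphomas came from 5 mice of mixed C57BL/6 and 129S6/SvEv background, which lack p53 and carry on both alleles a RAG2 recombinase without its C-terminal part (the RAG2 core). The controls were thymuses of 3 wild-type (WT) C57BL/6 mice, taken over from an earlier series, and the labels give no age for any group. One label field calls all 13 samples lymphomas, and the thymuses were told apart by their genotype and tissue labels. Strain and series went with the groups, so that their parts in any difference from WT thymus cannot be told apart from that of the lymphoma.

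The TCR itself has almost no cytoplasmic tail and signals through the CD3 gamma, delta and epsilon chains and the zeta chain (CD247), whose tyrosine motifs are phosphorylated by the Src family kinase LCK. The phosphorylated motifs recruit the kinase ZAP70, which phosphorylates the membrane adaptor LAT and the cytosolic adaptor SLP-76, the product of Lcp2, and so assembles the platform from which calcium, Ras and NF-kB signalling start. THEMIS binds the LAT complex through GRB2 and is needed for positive selection of thymocytes. In the thymus a similar complex, the pre-TCR, tests the beta chain before the alpha chain is made, and the kinase SYK acts beside ZAP70 at that early stage.

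Cd3g, Cd3d and Cd3e lie side by side in a cluster of 40.0 kb on chromosome 9 (GRCm38, 44969572 to 45009590), with only 1361 bases between the divergently transcribed Cd3g and Cd3d. The sequences printed below are the 250 bases before the RefSeq transcription start of these 3 neighbours, and of Lcp2 and Themis, the members that differed most from WT thymus (build GRCm38.p6, read 5′ to 3′ on the strand of the gene). Capitals mark the ETS core, GGAA or TTCC on the opposite strand, bound by a family of factors that includes thymocyte regulators.
Cd3g (chr9:44980432-44980681, minus strand): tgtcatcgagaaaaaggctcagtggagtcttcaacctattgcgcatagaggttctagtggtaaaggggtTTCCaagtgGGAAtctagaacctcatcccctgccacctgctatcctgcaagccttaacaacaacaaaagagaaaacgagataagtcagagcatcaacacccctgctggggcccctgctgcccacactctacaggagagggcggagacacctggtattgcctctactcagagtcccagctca
Cd3d (chr9:44981536-44981785, plus strand): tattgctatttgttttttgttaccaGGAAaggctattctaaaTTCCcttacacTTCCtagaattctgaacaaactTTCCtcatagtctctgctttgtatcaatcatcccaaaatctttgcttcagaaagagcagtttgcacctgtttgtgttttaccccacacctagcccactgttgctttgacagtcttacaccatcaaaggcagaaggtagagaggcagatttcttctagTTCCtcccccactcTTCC
Cd3e (chr9:45009612-45009861, minus strand): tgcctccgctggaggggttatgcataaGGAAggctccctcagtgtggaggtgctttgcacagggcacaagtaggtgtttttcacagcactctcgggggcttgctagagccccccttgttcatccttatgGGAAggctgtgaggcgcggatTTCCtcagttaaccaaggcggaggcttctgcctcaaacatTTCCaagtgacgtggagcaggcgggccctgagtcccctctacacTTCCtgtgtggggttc
Lcp2 (chr11:34046678-34046927, plus strand): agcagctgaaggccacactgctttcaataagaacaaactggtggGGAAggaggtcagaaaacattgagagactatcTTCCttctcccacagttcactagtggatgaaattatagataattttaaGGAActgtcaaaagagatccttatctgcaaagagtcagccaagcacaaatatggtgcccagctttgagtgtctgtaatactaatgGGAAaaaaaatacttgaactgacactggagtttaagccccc
Themis (chr10:28668110-28668359, plus strand): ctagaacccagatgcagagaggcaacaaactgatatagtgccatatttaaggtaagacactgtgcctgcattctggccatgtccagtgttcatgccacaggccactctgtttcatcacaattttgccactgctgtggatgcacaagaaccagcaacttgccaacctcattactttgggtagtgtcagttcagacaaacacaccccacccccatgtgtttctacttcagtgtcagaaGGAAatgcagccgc
The ETS core occurred 2, 6 and 5 times before Cd3g, Cd3d and Cd3e, 4 times before Lcp2 and 1 time before Themis. It is a short word, found in 93.45% of the 32851 RefSeq promoters of the same length, so its presence sets none of these genes apart. Over the 13 start sites that RefSeq gives for the 9 members, 12 held it. The letters TATAAA, or TTTATA, which 12.37% of all promoters held, occurred in 0 of the 13. The RUNX word TGTGGT or ACCACA was found before 1 start of Zap70 and 1 of Lck and in 14.05% of all promoters. Such matches describe the letters in the window and say nothing about binding.

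The values are normalized counts, that is, read counts that the authors scaled by library size factors and then rounded. The libraries differed in depth, with an estimated 6.67 to 38.84 M reads (M for mega) in WT thymus, 9.235 to 23.64 M in Atm-/- lymphomas and 6.368 to 24.71 M in Rag2c/c p53-/- lymphomas. The altered genes did not separate the groups by presence or absence of their transcripts. Atm was listed at 732, 208, 445, 568 and 534 in the Atm-/- lymphomas, against 1990, 1559 and 2274 in WT thymus and 439 to 1315 in the Rag2c/c p53-/- lymphomas. Rag2 was lower in both lymphoma groups (46 to 1025 and 260 to 790) than in WT thymus (4199 to 5409). Trp53 was listed at 2018 to 5461 in the Rag2c/c p53-/- lymphomas, overlapping WT thymus (4387 to 6341), and was higher in the Atm-/- lymphomas (6853 to 11318). Transcripts of the mutated genes were thus still counted, and these values bear on the labels only in part.

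T lineage genes were abundant in every library. The summed level of 6 of them (Thy1, Cd2, Tcf7, Bcl11b, Cd27 and Gata3) spanned 87119 to 147390 in WT thymus, 93581 to 113909 in Atm-/- lymphomas and 81989 to 119793 in Rag2c/c p53-/- lymphomas, with Tcf7 as the most abundant. Within this list Bcl11b, a transcription factor of T cell commitment, fell in Atm-/- lymphomas (7406 to 11512 against 18420 to 25105 in WT thymus, -1.20 ± 0.17, log2 and SE, limma adjusted p = 0.000108) and was at -0.64 ± 0.17 in Rag2c/c p53-/- lymphomas (limma adjusted p = 0.00889), below every thymus in both. Cd2 in Rag2c/c p53-/- lymphomas (546 to 2945) was also below every thymus (4143 to 4973, limma adjusted p = 0.0803). Gata3 went the other way in Atm-/- lymphomas, at 0.839 ± 0.265 (limma adjusted p = 0.0205), and was not called. It was listed there at 3893 to 7778, against 3063 to 4048 in WT thymus. Negative log2 fold changes were found for 2 of the 6 genes in Atm-/- lymphomas (list median 0.03). The Rag2c/c p53-/- group had 4 of 6 (list median -0.22). Of other cell types, the 6 fibroblast genes summed to 204 to 218 in WT thymus, 3783 to 18172 in Atm-/- and 642 to 2336 in Rag2c/c p53-/- lymphomas, with Col1a2 the most abundant in the lymphomas. The 6 myeloid genes, led by Lyz2, summed to 3704 to 4178, 7202 to 12047 and 4360 to 8897. B cell genes were lower in the lymphomas, with 1576 to 1885 in WT thymus, 199 to 325 in Atm-/- and 219 to 554 in Rag2c/c p53-/- lymphomas. The 6 thymic epithelial genes summed to 725 to 1058 in WT thymus, 189 to 609 in Atm-/- and 287 to 1320 in Rag2c/c p53-/- lymphomas. Of these Foxn1, Krt8 and Psmb11 were called lower in both lymphoma groups and Krt5 in Rag2c/c p53-/- lymphomas, and Psmb11 was listed at 0 in every Atm-/- lymphoma. Epcam was the most abundant of them in Rag2c/c p53-/- lymphomas (22, 875, 540, 172 and 750 against 221 to 283 in WT thymus). Ccl25 overlapped WT thymus in that group (227 to 429 against 260 to 296). All 6 log2 fold changes were negative in Atm-/- lymphomas and 4 of 6 in Rag2c/c p53-/- lymphomas. Of 6 NK cell genes, Gzma was higher and the other 5 were lower in both lymphoma groups. The 6 genes of dividing cells summed to 34836 to 40938 in WT thymus, to 31126 to 64247 in Atm-/- and to 36304 to 50665 in Rag2c/c p53-/- lymphomas. The 6 erythroid genes (838 to 6939 over all libraries) and the 6 endothelial genes (1964 to 6203) overlapped between the groups in their sums. The endothelial sum was mostly Pecam1, and in Rag2c/c p53-/- lymphomas Plvap was called higher (140 to 443 against 9 to 14 in WT thymus) and Cdh5 and Kdr were called lower. The part of other cells in the values of the members was not tested, and in bulk RNA fewer T lineage cells and less RNA per cell cannot be told apart.

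The receptor subunits, Lck, Zap70, Lat and Lcp2 stayed among the highly expressed genes of the lymphomas. Themis and Lcp2 were the members furthest below WT thymus, and Cd247 was lower by less. Compared per kilobase of annotated exon (GENCODE vM21), Lck had the highest level of the 9 genes in WT thymus, 7522 ± 1901 normalized counts per kilobase (SD, n = 3), above 99.87% of 13317 coding genes. Lat followed with 4300 ± 1158. Cd3d (3216 ± 297), Cd3e (2837 ± 894) and Cd3g (2617 ± 669) came next, and their ranges over the thymuses overlapped. Zap70 (1872 ± 174), Lcp2 (1843 ± 205) and Cd247 (1598 ± 291) came below them, again with overlapping ranges. Themis was the lowest with 1129 ± 113, above 93.68% of coding genes. In the lymphomas Lck stayed first and Lat second, but the ranges of this pair overlapped in both groups (Lat 5831 ± 2095 per kilobase in the Atm-/- and 5068 ± 2268 in the Rag2c/c p53-/- lymphomas, n = 5 each). Themis stayed last, at 470 ± 85.0 and 477 ± 159 per kilobase, and its place among coding genes moved to 77.92% and 78.28%. Lcp2 dropped below Cd247 in mean level per kilobase in both lymphoma groups, to above 90.4% and 88.93% of coding genes.

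**Figure D1:**
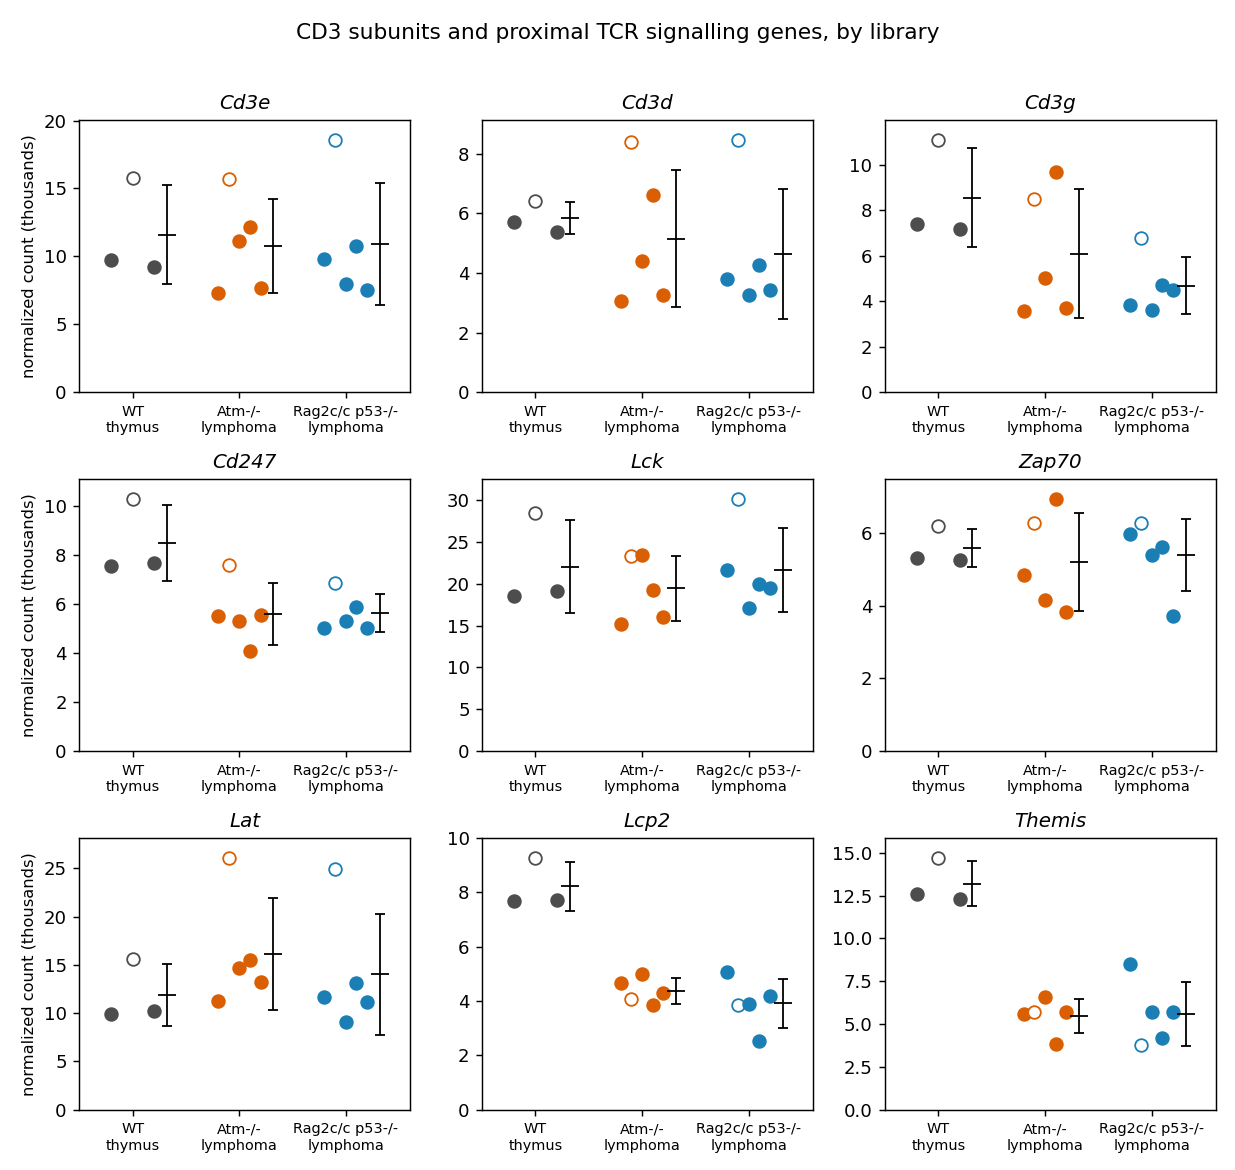
Normalized counts (linear axis from 0, in units of 1000) of the 9 members in each of 3 WT thymuses, 5 Atm-/- lymphomas and 5 Rag2c/c p53-/- lymphomas; each point is a library, open points are the 3 libraries under 10 M estimated reads, and the bar beside each group is the mean with its SD. The lymphomas lie below every WT thymus for Lcp2 and Themis, and overlap the WT values for Cd3e, Lck and Zap70.

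Themis showed the lowest values relative to WT thymus. Its normalized counts were 12578, 14709 and 12297 in the WT thymuses (replicates 1 to 3 in all such lists), 5620, 5704, 6576, 3860 and 5702 in the Atm-/- lymphomas and 8490, 3759, 5711, 4167 and 5730 in the Rag2c/c p53-/- lymphomas. The highest lymphoma value lay below the lowest WT value in both groups. The gene (ENSMUSG00000049109, chromosome 10, 28668360 to 28883818) fell by 1.28 ± 0.24 (log2, SE) in Atm-/- lymphomas, to 41.2% of the WT level (95% confidence interval 28.8% to 58.7%), with a limma adjusted p of 0.000902. In Rag2c/c p53-/- lymphomas it fell by 1.30 ± 0.24, to 40.6% (28.5% to 58.0%, limma adjusted p = 0.00111). Both comparisons use the same 3 WT thymuses and are not independent of each other.

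Lcp2, which encodes the adaptor SLP-76, had the next lowest values. Its normalized counts were 7670, 9271 and 7708 in WT thymus, 4667, 4063, 4992, 3845 and 4287 in Atm-/- lymphomas and 5086, 3860, 3877, 2542 and 4201 in Rag2c/c p53-/- lymphomas. No lymphoma reached the lowest thymus. In Rag2c/c p53-/- lymphomas Lcp2 (ENSMUSG00000002699, chromosome 11, 34046920 to 34092295) fell by 1.10 ± 0.19 (log2, SE), to 46.7% of WT (35.3% to 61.8%, limma adjusted p = 0.000716). Without Rag2c/c p53-/- lymphoma replicate 4, its lowest library, the value was -0.95, short of the threshold of 1 on the log2 scale. In Atm-/- lymphomas the log2 fold change was -0.91 ± 0.19, 53.2% of WT (40.2% to 70.4%, limma adjusted p = 0.00178), which passed the p threshold and not the fold threshold.

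By the rule used for calls (limma adjusted p under 0.05, a log2 fold change beyond -1 or 1 and a mean of 10 or more in 1 of the groups), 1 of the 9 members was lower in Atm-/- lymphomas and 2 of 9 in Rag2c/c p53-/- lymphomas, and 0 were higher. Over all 15872 genes 17% were called lower and 12.6% higher in Atm-/- lymphomas, and 13.9% lower and 9.77% higher in Rag2c/c p53-/- lymphomas. The share of members called is close to these. Without a fold threshold 3 members (Themis, Lcp2 and Cd247) passed against WT in each lymphoma group, where 23.5% and 19.7% of all genes were lower at that threshold. The lymphoma and WT values did not overlap for 2 members in the Atm-/- and 4 in the Rag2c/c p53-/- lymphomas, all lower, against 27.9% and 24.2% of all genes. The log2 fold change was negative for 8 of 9 members in both comparisons, Lat being the exception, and the member median was -0.29 and -0.43 beside -0.02 and -0.02 over all genes.

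**Figure D2:**
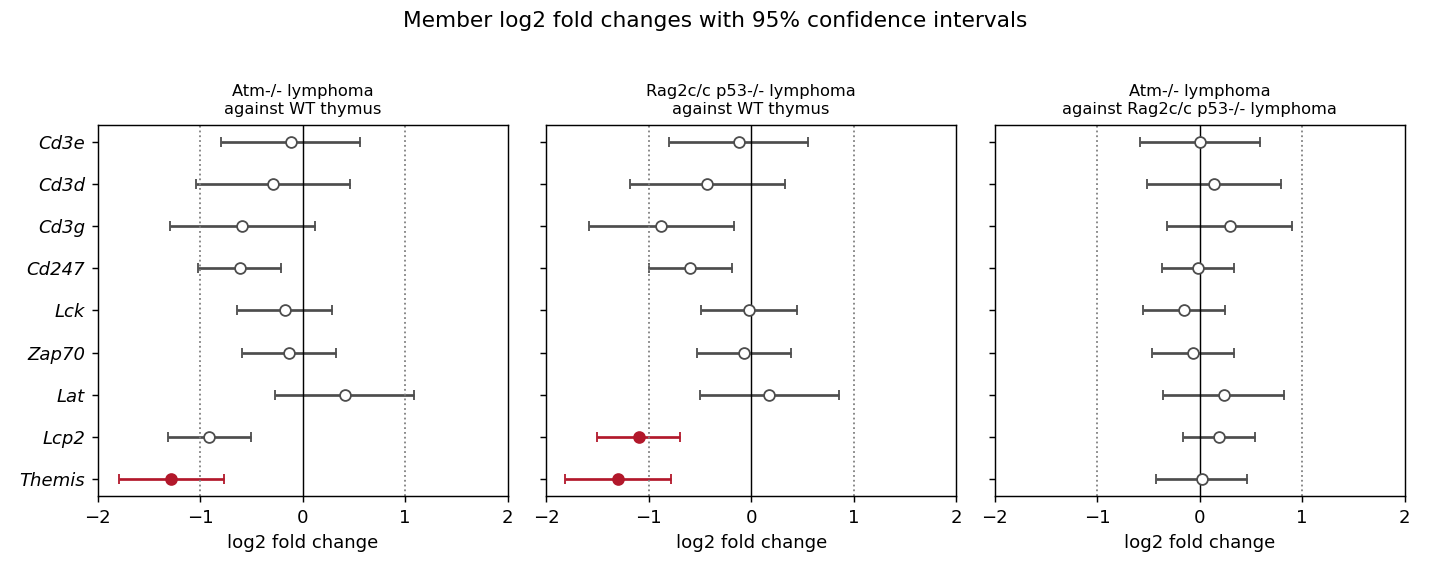
Log2 fold change (x axis) of each member with its 95% confidence interval from limma in the 3 comparisons; filled red points passed the call rule and dotted lines mark a log2 fold change of -1 and 1. Themis is called in both comparisons with WT thymus, Lcp2 in that of the Rag2c/c p53-/- lymphomas, and all 9 intervals of the comparison between the lymphoma groups include 0.

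Among the receptor subunits, Cd247 and Cd3g were the lower ones. Cd247 (ENSMUSG00000005763, chromosome 1, 165788681 to 165877277), the zeta chain with most of the signalling motifs of the complex, was listed at 7568, 10304 and 7674 in WT thymus, 5517, 7593, 5296, 4086 and 5576 in Atm-/- lymphomas and 5031, 6863, 5323, 5895 and 5015 in Rag2c/c p53-/- lymphomas. Atm-/- replicate 2 exceeded the lowest thymus by a small margin, and no Rag2c/c p53-/- lymphoma did. The log2 fold changes were -0.61 ± 0.19 (SE, 65.3% of WT, limma adjusted p = 0.0178) and -0.59 ± 0.19 (66.3%, limma adjusted p = 0.0249), under the fold threshold in both. Without WT replicate 2 they were -0.47 and -0.45 and missed the p threshold (limma adjusted p = 0.0964 and 0.125). In Rag2c/c p53-/- lymphomas the p threshold was also missed without WT replicate 3 (limma adjusted p = 0.0505) and without lymphoma replicate 5 (0.0514). Cd247 overlaps Pou2f1, a gene on the opposite strand with a mean of 1336 normalized counts, and the strand setting of the read counting is not given in the sources used here.

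Cd3g (ENSMUSG00000002033, chromosome 9, 44969572 to 44980431) differed more between single lymphomas. It was listed at 7412, 11077 and 7179 in WT thymus, 3562, 8472, 5033, 9687 and 3685 in Atm-/- lymphomas and 3832, 6775, 3621, 4708 and 4470 in Rag2c/c p53-/- lymphomas. Atm-/- replicates 2 and 4 were within the WT range and the other 3 below it, and all Rag2c/c p53-/- lymphomas were below it. The log2 fold changes were -0.59 ± 0.33 (SE, limma adjusted p = 0.161) and -0.88 ± 0.33 (limma adjusted p = 0.0504). The second value passed both thresholds without Rag2c/c p53-/- lymphoma replicate 2 (-1.02, limma adjusted p = 0.0291).

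Cd3d and Cd3e, the neighbours of Cd3g, were nearer to WT. Cd3d (ENSMUSG00000032094, chromosome 9, 44981793 to 44987052) was listed at 5709, 6429 and 5375 in WT thymus, 3065, 8392, 4417, 6624 and 3251 in Atm-/- lymphomas and 3791, 8457, 3246, 4267 and 3418 in Rag2c/c p53-/- lymphomas. Of the 10 lymphomas, 3 were above the highest thymus and 7 below the lowest. The log2 fold changes were -0.29 ± 0.35 and -0.43 ± 0.35 (SE, limma adjusted p = 0.518 and 0.355). For Cd3e (ENSMUSG00000032093, chromosome 9, 44998743 to 45009590) the values were 9728, 15778 and 9222, then 7309, 15675, 11122, 12133 and 7671, then 9801, 18552, 7957, 10779 and 7520 in the same order of groups. They spanned nearly the same range in all groups, with log2 fold changes of -0.12 ± 0.32 in both comparisons (limma adjusted p = 0.781 and 0.786). The 95% intervals, 57.6% to 147.3% and 57.5% to 147.0% of WT, leave room for a change of Cd3e in either direction.

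The proximal kinases were close to their WT level. Lck (ENSMUSG00000000409, chromosome 4, 129548344 to 129573641), the kinase that starts the cascade, was listed at 18550, 28454 and 19090 in WT thymus, 15165, 23311, 23441, 19283 and 16011 in Atm-/- lymphomas and 21699, 30142, 17062, 20013 and 19446 in Rag2c/c p53-/- lymphomas. Its level was 88.5% of WT (95% interval 64.1% to 122.3%, limma adjusted p = 0.528) and 98.4% (71.2% to 136.0%, limma adjusted p = 0.943). Zap70 (ENSMUSG00000026117, chromosome 1, 36761798 to 36782818) was listed at 5325, 6201 and 5275 in WT thymus, 4850, 6291, 4178, 6951 and 3838 in Atm-/- lymphomas and 5975, 6285, 5394, 5625 and 3736 in Rag2c/c p53-/- lymphomas. It was at 91.1% (66.2% to 125.2%) and 95.3% (69.3% to 130.9%) of WT, with limma adjusted p of 0.627 and 0.818. For both kinases the groups overlapped, and the intervals leave room for a change in either direction within their bounds.

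Lat (ENSMUSG00000030742, chromosome 7, 126363832 to 126369543), the membrane adaptor on which the signalling platform forms, was the only member with a higher mean in the lymphomas. It was listed at 9885, 15593 and 10216 in WT thymus, 11214, 26084, 14628, 15545 and 13205 in Atm-/- lymphomas and 11701, 24952, 9134, 13129 and 11204 in Rag2c/c p53-/- lymphomas. The groups overlapped, and the log2 fold changes of 0.41 ± 0.32 and 0.18 ± 0.32 (SE) did not pass (limma adjusted p = 0.306 and 0.688).

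The levels of several members went with the depth of the library. In WT thymus, replicate 2 with 6.67 M estimated reads was the highest library for 9 of 9 members, while it was the highest for 48.5% of 5647 genes whose mean reached 1000. In Rag2c/c p53-/- lymphomas replicate 2 (6.368 M) was the highest for 7 of 9 members, against 29.75% of those genes, and in Atm-/- lymphomas replicate 2 (9.235 M) for 4 of 9, against 33.01%. Cd3e reached 18552, 15778 and 15675 in these 3 shallow libraries and lay between 7309 and 12133 in the other 10. For Themis and Lcp2 the shallowest lymphoma was not the highest in either group, and that of the Rag2c/c p53-/- group held its lowest Themis value. Without the 3 shallow libraries, a choice made after seeing the data, Themis was at -1.22 and -1.09 (log2; limma adjusted p = 0.00535 and 0.0125) and Lcp2 at -0.80 and -1.01 (limma adjusted p = 0.0197 and 0.00938), so that the calls were as before. With the logarithm of the estimated reads as a covariate, also chosen after seeing the data, Cd3g was at -0.80 and -1.06 (limma adjusted p = 0.0148 and 0.00383) and passed the call rule in Rag2c/c p53-/- lymphomas, while Cd3e was at -0.36 and -0.32 (limma adjusted p = 0.0872 and 0.13). The 2 deepest libraries are both WT thymuses, so depth is not balanced over the groups.

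**Figure D3:**
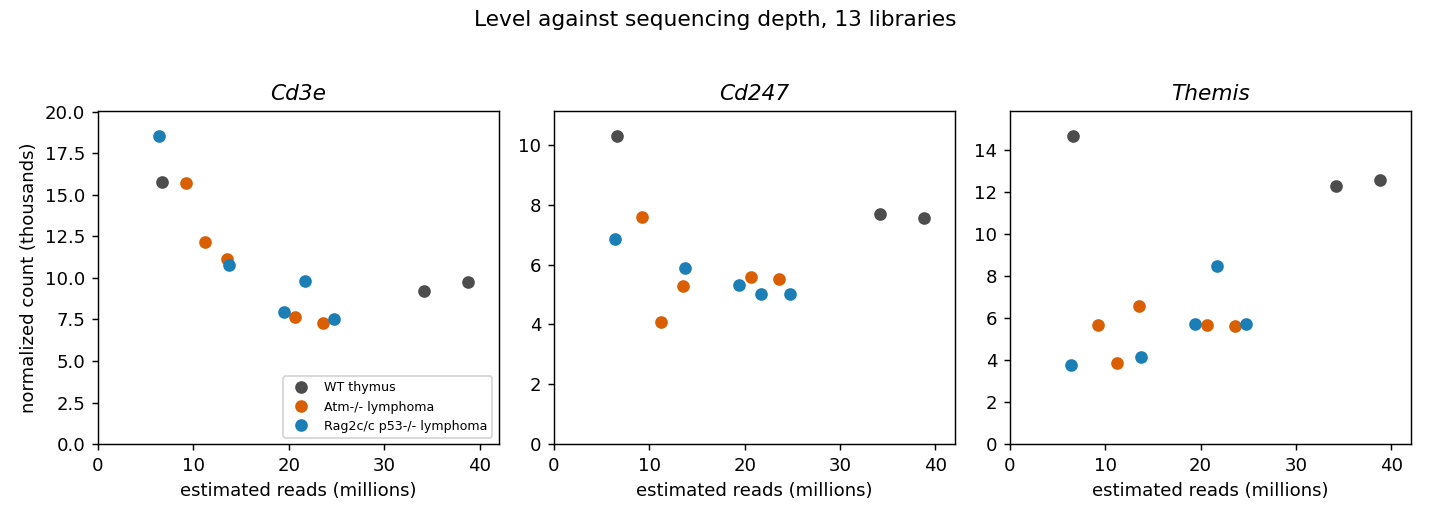
Normalized counts (from 0, in units of 1000) of Cd3e, Cd247 and Themis against the estimated number of reads (M) in 13 libraries, coloured by group. Cd3e is highest in the 3 libraries under 10 M reads whatever their group, whereas the WT thymuses lie above all lymphomas for Themis at every depth.

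Between the lymphoma groups none of the 9 members differed by the call rule in limma, and 0 had an unadjusted p under 0.05, where 7.84% of all genes were called, 11.4% had an adjusted p under 0.05 and 26.2% an unadjusted p under 0.05. The lymphoma groups overlapped for all 9, whereas 8.33% of all genes did not overlap. The limma adjusted p lay between 0.516 and 0.997. The intervals were narrowest for Lcp2 (113.9% of the Rag2c/c p53-/- level, 89.3% to 145.3%) and Cd247 (98.6%, 77.3% to 125.7%), and widest for Cd3d (110.0%, with a log2 interval of -0.52 to 0.79). Themis was at 101.3% (74.4% to 137.8%).

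Ratios between members within a library remove whatever scales both genes alike, and are given as a description with no test. Lat was 0.51 ± 0.21 log2 units above Lcp2 in WT thymus (SD, n = 3), 1.83 ± 0.55 above it in the Atm-/- and 1.78 ± 0.70 in the Rag2c/c p53-/- lymphomas (SD, n = 5 each), where the lowest lymphoma (1.20) exceeded the highest thymus (0.75). The transcripts of Lat and Lcp2 thus stood in another proportion in all 10 lymphomas, and their proteins were not measured. This ratio still went with depth, since the shallowest library was the highest of its group each time (0.75, 2.68 and 2.69). The log2 ratio of Cd3e to Cd3g was 0.42 ± 0.08 in WT thymus, 0.89 ± 0.33 in the Atm-/- and 1.18 ± 0.27 in the Rag2c/c p53-/- lymphomas, and only Atm-/- replicate 4 (0.33) lay under the highest thymus (0.51). Cd247 over the mean of the 3 CD3 chains overlapped between the groups, with 0.04 ± 0.07, -0.24 ± 0.63 and -0.08 ± 0.30, and Atm-/- replicate 4 was the lowest library at -1.17. Zap70 to Lck overlapped between the groups, with -1.95 ± 0.22, -1.91 ± 0.39 and -2.0 ± 0.31.

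The paralogs of both kinases were lower in the lymphomas. Syk, the relative of ZAP70 used at the pre-TCR stage and by B cells, was listed at 1492, 1442 and 1508 in WT thymus, 390, 240, 248, 297 and 321 in Atm-/- lymphomas and 1188, 611, 533, 659 and 613 in Rag2c/c p53-/- lymphomas. The 3 groups did not overlap. Syk fell by 2.33 ± 0.24 (log2, SE) in Atm-/- lymphomas (limma adjusted p = 1.54e-05), fell by 1.10 ± 0.24 in Rag2c/c p53-/- lymphomas (limma adjusted p = 0.0037), and was lower in Atm-/- than in Rag2c/c p53-/- lymphomas by a log2 value of -1.23 ± 0.21 (limma adjusted p = 0.00263). The log2 ratio of Zap70 to Syk was 1.92 ± 0.16 in WT thymus, 4.11 ± 0.51 in the Atm-/- and 2.95 ± 0.46 in the Rag2c/c p53-/- lymphomas, and was highest in the shallowest library of each group (2.10, 4.71 and 3.36). B cells also use Syk, and the B cell genes were lower in the lymphomas too, as given above; their part in the Syk values was not tested. Fyn, the relative of Lck, was lower in both groups without reaching the fold threshold (-0.92 ± 0.18 and -0.60 ± 0.18, limma adjusted p = 0.00139 and 0.0198). The log2 ratio of Lck to Fyn was 2.06 ± 0.20, 2.80 ± 0.44 and 2.64 ± 0.35.

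**Figure D4:**
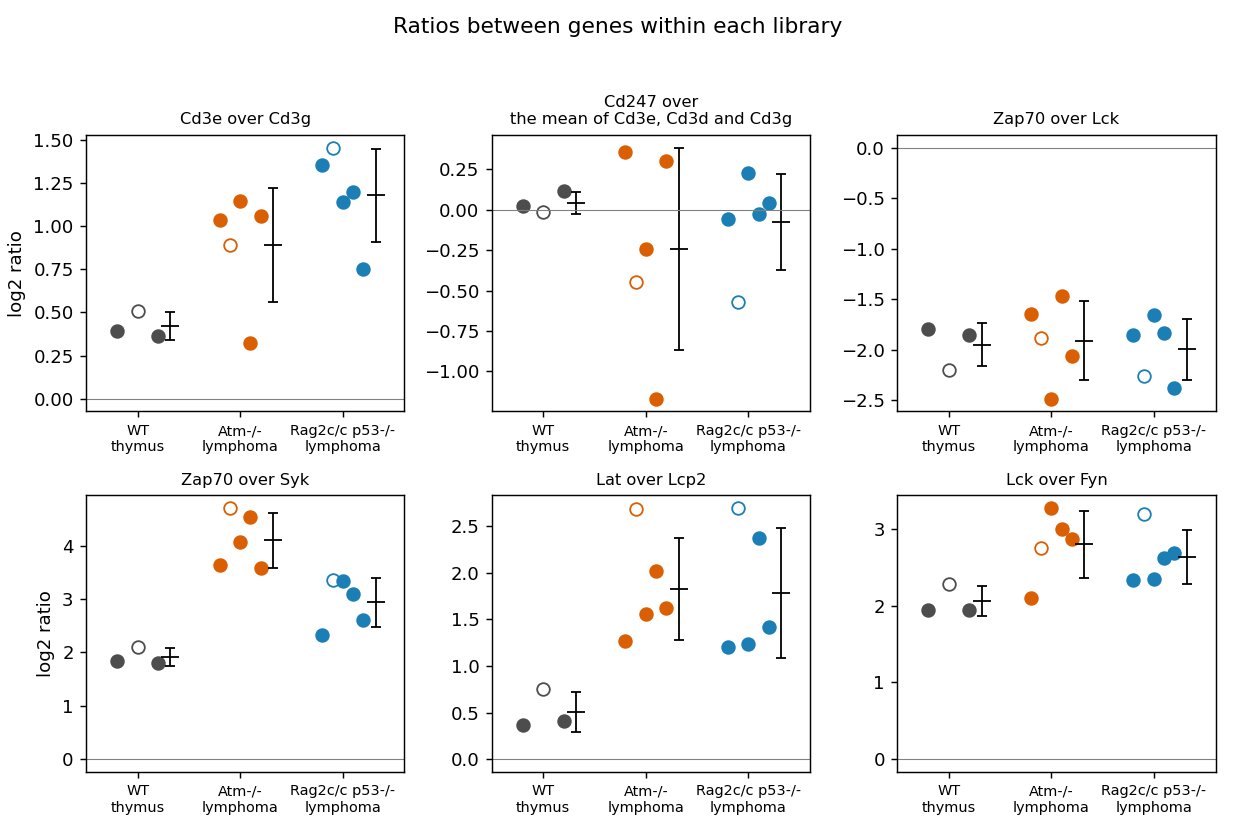
Log2 ratios (y axis) between genes within each library, for 3 WT thymuses, 5 Atm-/- and 5 Rag2c/c p53-/- lymphomas; open points are the 3 libraries under 10 M estimated reads and bars are means with SD. Lat over Lcp2 and Zap70 over Syk are above every thymus in all 10 lymphomas, and Zap70 over Lck overlaps between the groups.

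The members were set beside 63 other genes of the pathway, of which 62 were in the table and tested. None of the 62 passed as higher than WT thymus in either lymphoma group. In Atm-/- lymphomas 24 passed as lower (38.71%, against 17% of all genes) with a median log2 fold change of -0.86, and in Rag2c/c p53-/- lymphomas 18 (29.03%, against 13.9%) with a median of -0.65. Without the 3 shallow libraries the counts were 21 and 13, and without WT replicate 3 that in Rag2c/c p53-/- lymphomas was 11. Between the lymphoma groups 4 of 62 differed, Tcrg-C2 higher and Syk, Vav3 and Cd8b1 lower in Atm-/- lymphomas, against 7.84% of all genes. That count was 1 without Atm-/- replicate 4 and 2 without Atm-/- replicate 1, Rag2c/c p53-/- replicate 1, 4 or 5, or WT replicate 1 or 3, and 6 without Atm-/- replicate 3. The share of all genes called was computed with all 13 libraries only. Whether the pathway genes still exceeded it with libraries left out was therefore not tested.

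Receptor chains and coreceptors varied from lymphoma to lymphoma. Of 10 tested, 2 fell in Atm-/- lymphomas (20%, beside 17% of all genes), the coreceptor chains Cd8b1 (-1.66 ± 0.40, log2 and SE, limma adjusted p = 0.00487) and Cd8a (-1.49 ± 0.35, limma adjusted p = 0.00372), and 1 fell in Rag2c/c p53-/- lymphomas (10%, beside 13.9%), Tcrg-C2, a constant region of the gamma chain (-3.54 ± 1.13, limma adjusted p = 0.0252). The coreceptor gene Cd4 was also below every thymus in Atm-/- lymphomas (1201 to 17284 against 19831 to 30705), without passing (-1.57 ± 0.71, limma adjusted p = 0.0868). In Rag2c/c p53-/- lymphomas Cd4 overlapped WT thymus (5470 to 25455, limma adjusted p = 0.335). Trac, the constant region of the alpha chain, was listed at 4310, 8017 and 4344 in WT thymus, 1294, 2567, 5614, 483 and 2124 in Atm-/- and 8042, 8507, 4393, 2753 and 3119 in Rag2c/c p53-/- lymphomas. Trbc2, a constant region of the beta chain, spanned 11385 to 19387, 8574 to 20320 and 4487 to 37090. Ptcra, the pre-TCR alpha chain, ranged from 143 to 8050 among the Atm-/- and from 259 to 3120 among the Rag2c/c p53-/- lymphomas, around WT values of 1107 to 1420. Trbc1, another constant region of the beta chain, spanned 9559 to 15801 in WT thymus, 81 to 25684 in Atm-/- and 17 to 8484 in Rag2c/c p53-/- lymphomas. The highest Atm-/- lymphoma exceeded the lowest by 317.1-fold for Trbc1, 11.6-fold for Trac and 56.3-fold for Ptcra. The excess was 2.37-fold for Trbc2 and 3.02-fold for Cd8b1, and 1.30-fold (Lcp2) to 2.74-fold (Cd3d) among the 9 members. In Rag2c/c p53-/- lymphomas it was 499.1-fold for Trbc1 and 8.27-fold for Trbc2. Trbc1 and Trbc2, and some of the gamma constant genes, are near-identical copies, so reads may be split between them.

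Kinases downstream of the receptor were lower in part. Of 7 tested, 4 fell in Atm-/- lymphomas (57.14%, beside 17% of all genes) and 3 in Rag2c/c p53-/- lymphomas (42.86%, beside 13.9%), with Syk, Tec and Txk in both. Txk, a kinase of the Tec family, was listed at 2363, 2303 and 2395 in WT thymus and at 105 to 1249 and 541 to 1067 in the lymphomas (-2.90 ± 0.56 and -1.72 ± 0.56, limma adjusted p = 0.00113 and 0.0271). Tec had log2 fold changes of -1.56 ± 0.30 and -1.65 ± 0.30 (limma adjusted p = 0.00124 and 0.00113). Csk, which inhibits Lck, did not pass (0.34 ± 0.15 and 0.21 ± 0.15, limma adjusted p = 0.0779 and 0.276).

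Of 14 adaptors, Trat1, Tespa1, Themis2 and Sh3bp2 fell in both lymphoma groups (28.57% in each, beside 17% and 13.9% of all genes). Trat1, which encodes a transmembrane adaptor of the TCR, had log2 fold changes of -1.66 ± 0.46 and -1.67 ± 0.46 (limma adjusted p = 0.0108 and 0.0126). Sh3bp2, an adaptor that binds SYK family kinases, had -1.68 ± 0.31 and -1.74 ± 0.31 (limma adjusted p = 0.000802 and 0.000892). Grap2, whose product GADS joins SLP-76 to LAT, had -0.85 ± 0.39 and -0.53 ± 0.39 and did not pass (limma adjusted p = 0.0919 and 0.307). Themis2, the relative of Themis used in B cells, was lower by log2 values of -1.06 ± 0.32 and -1.19 ± 0.32 (limma adjusted p = 0.0169 and 0.0111). Nck2 went the other way in Atm-/- lymphomas and was above every thymus (4388 to 5866 against 2836 to 3391). Its log2 fold change there was 0.74 ± 0.15 (limma adjusted p = 0.00145), short of the fold threshold. Negative log2 fold changes were found for 12 of the 14 adaptors in each lymphoma group.

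Of the effectors that act after the LAT platform, 7 of 14 fell in Atm-/- lymphomas (50%, beside 17% of all genes) and 5 of 14 in Rag2c/c p53-/- lymphomas (35.71%, beside 13.9%). Rasgrp1, the Ras activator downstream of LAT, was listed at 15285, 19108 and 15889 in WT thymus, 5464, 6006, 2193, 7276 and 2645 in Atm-/- and 6044, 2016, 8154, 2223 and 3652 in Rag2c/c p53-/- lymphomas. It fell by 1.97 ± 0.47 and 2.13 ± 0.47 on the log2 scale (limma adjusted p = 0.00466 and 0.00373). Prkcq, the protein kinase C of T cells, fell in both groups (-1.33 ± 0.42 and -1.71 ± 0.42, limma adjusted p = 0.0205 and 0.00651), as did Itpr1, a calcium channel of the endoplasmic reticulum (-2.12 ± 0.40 and -1.48 ± 0.40, limma adjusted p = 0.000976 and 0.0111). Vav3, a guanine nucleotide exchange factor, fell by 2.96 ± 0.70 in Atm-/- lymphomas (limma adjusted p = 0.0043) and was lower there than in Rag2c/c p53-/- lymphomas (-2.31 ± 0.61, limma adjusted p = 0.0263). Malt1, a protease that acts in NF-kB activation, fell in both groups, whereas Plcg1, the phospholipase that binds LAT, was at -0.97 ± 0.26 and -0.78 ± 0.26 and passed the p threshold alone (limma adjusted p = 0.00822 and 0.0297).

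Of the phosphatases and other brakes on the receptor, 7 of 17 fell in Atm-/- lymphomas (41.18%, beside 17% of all genes) and 5 of 17 in Rag2c/c p53-/- lymphomas (29.41%, beside 13.9%), with Cd5, Cd6, Dgka and Pag1 in both. The phosphatase gene Ptpn2 went the other way and was above every thymus in both groups (0.61 ± 0.18 and 0.50 ± 0.18, limma adjusted p = 0.0159 and 0.0438), short of the fold threshold. Cd5, a surface inhibitor whose level follows TCR signal strength in thymocytes, was listed at 6131, 7014 and 6244 in WT thymus, 1737, 2494, 278, 3668 and 639 in Atm-/- and 1322, 800, 2041, 1734 and 360 in Rag2c/c p53-/- lymphomas (-2.39 ± 0.73 and -2.60 ± 0.73, limma adjusted p = 0.0173 and 0.0135). Dgka, a kinase that removes diacylglycerol, had log2 fold changes of -1.85 ± 0.47 and -2.69 ± 0.47 (limma adjusted p = 0.00649 and 0.000799). Ubash3b, a phosphatase that acts on SYK and ZAP70, fell by 2.61 ± 0.60 in Atm-/- lymphomas (limma adjusted p = 0.00357) and was at -1.57 ± 0.60 in Rag2c/c p53-/- lymphomas (limma adjusted p = 0.0543). Ptprc, the phosphatase CD45 that activates LCK, was called in Rag2c/c p53-/- lymphomas (-1.5 ± 0.26, limma adjusted p = 0.0007) and was at -0.80 ± 0.26 in Atm-/- lymphomas (limma adjusted p = 0.0216). The difference between the lymphoma groups did not pass for Ptprc (0.70 ± 0.22, limma adjusted p = 0.0571).

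**Figure D5:**
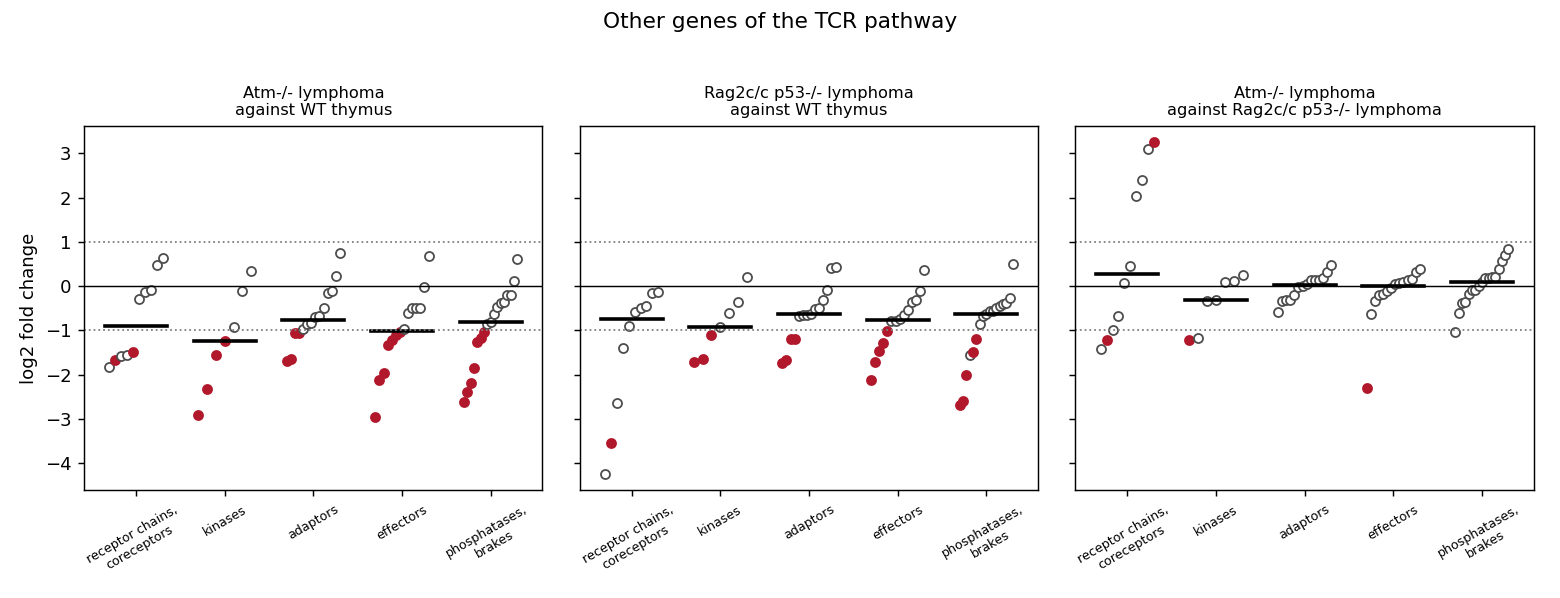
Log2 fold change (y axis) of the other TCR pathway genes by list in the 3 comparisons; each point is a gene, filled red points passed the call rule, black bars are list medians and dotted lines mark -1 and 1. Against WT thymus every list median is negative and no gene is called higher.

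The genes beside the CD3 cluster did not share one direction. Of the 5 nearest tested genes on each side, the direct neighbour Ube4a had log2 fold changes of -0.42 and -0.18 (limma adjusted p = 0.131 and 0.546), Atp5l rose in both lymphoma groups (1.29 and 1.01, limma adjusted p = 0.0027 and 0.0136) and Kmt2a was at -0.98 and -1.18 (limma adjusted p = 0.0119 and 0.00531). On the other side Mpzl3 fell in both groups (-1.26 and -1.40, limma adjusted p = 0.00547 and 0.00369), and Scn4b, a sodium channel subunit, fell from a mean of 1555 to 59.8 and 479.6. Every one of the neighbours on the Cd3e side had a negative log2 fold change in both comparisons, though Mpzl2 and Scn2b passed in neither. Those on the Cd3g side went both ways, with Tmem25 at 3.40 and 3.19 from a WT mean of 1.667.

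Likeness of profiles across the 13 libraries was measured as the root mean square difference of centred log2 values. Among the members, Cd3e was closest to Lck (0.212) and Cd3d (0.214), and Lcp2 was closest to Themis (0.248). Genes outside the members were closer still, such as Ptpn18 to Cd3e (0.173) and Rasal3 to Lcp2 (0.127). The spread of Cd3e itself was 0.424, that of Lck 0.283 and that of Lcp2 0.488. The largest difference was that of Lat and Themis (0.902). Outside the members, the mean of the 4 subunits, whose own spread was 0.402, was most like Rabac1 (0.135), Coro1a and Tma7 (0.148 each), Tpra1 (0.161) and R3hdm4 (0.164). The mean of the 5 signalling members had Mtfmt (0.123), Ythdc1 (0.147) and Arpp21 (0.149) among its 5 most like genes. All values share the 13 libraries, their depth and the group differences, so that likeness describes the profiles only.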

How the data were processed

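RNA from single-cell suspensions was made into stranded mRNA libraries. The submitters' processing notes list bcl2fastq 1.8.3, STAR 2.4.0g1, Picard and DESeq2 1.6.3 with build mm10/GRCm38; the counting tool, annotation release and strand setting are not given in the sources used here. The deposited values were treated as a score: read counts per gene, scaled by the authors with library size factors and then rounded (a unit inferred from the values). Column totals (19788898 to 21591289) no longer show depth, so the number of reads was estimated from the spacing of low values, and whole reads could not be recovered. Count models were therefore not used. The authors' group means, fold changes, p-values and dispersions were not used.

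The 3 groups were compared in a single limma 3.58.1 model (R 4.3.3) of log2(value + 1), using its trend and robust options, for genes reaching 10 in at least 3 libraries, and p-values were adjusted by Benjamini-Hochberg over all 15872. A call needed adjusted p under 0.05, a log2 fold change beyond -1 or 1 and a mean of 10 or more in 1 of the groups. Fold changes are on the log2(value + 1) scale. The fit was tested on simulated data. Replicate numbers come from the labels for WT thymus and from accession order for lymphomas, each from 1 mouse. The p-values set group differences, strain and series included, against the spread between these libraries within groups. Trdc had no row. Named genes were all members, Atm, Rag2, Trp53, Syk, Fyn, of each pathway list the 2 highest and 2 lowest called genes whose groups do not overlap, the 5 closest profiles and the 5 neighbours on each side of the CD3 cluster; other pathway genes were picked after their values were seen. The members and lists were chosen with earlier results of these data known. Alternatives covered scaling, filters, pseudocount (0.5 and 10), the variance model, the groups in the fit, the fold threshold and each library left out. Values of some genes are not reported here.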

Additional observations from a re-analysis of the deposited data

Results flagged for a closer look

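In the 18 groups of 5 lymphoma values (9 members in 2 groups), 1 value stood apart on the log2 scale of the fit. Cd3d was listed at 8457 in Rag2c/c p53-/- lymphoma replicate 2, against 3246 to 4267 in the other 4. The gap to the next library made up 0.714 of the range of the log2 values, above Dixon's 95% critical value, which chance exceeds in about 1 of 20 groups. On the linear scale the share was 0.804, and Lat in the same library (24952, next 13129) would pass as well with 0.747. This library had the lowest depth, an estimated 6.368 M reads; the part of depth in this value was not tested.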

How the results depend on the processing

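Of 621 member values under alternatives, 586 kept their direction and side of the threshold. The counts of members called were 1, 2 and 0 (Atm-/- against WT, Rag2c/c p53-/- against WT, Atm-/- against Rag2c/c p53-/-). With no fold threshold, or a 1.5-fold one, the first and the second were 3 each. Leaving out each library in turn gave 1 to 1, 1 to 3 and 0 to 0 members, and 20 to 25, 11 to 20 and 1 to 6 of the pathway genes. For the last, 2 were called without trend and robust moderation and 1 with only the 2 groups compared. The share of all genes called was not computed under these settings. Cd3g reached -1.06 in Rag2c/c p53-/- lymphomas with depth as a covariate. Small values changed sign. Cd3e between the lymphoma groups was at -0.012 with equal totals, -0.01 with recomputed size factors and -0.038 with the covariate; Lat against WT in Rag2c/c p53-/- lymphomas was at -0.011 with the covariate; without the 3 shallow libraries Lck there was at 0.05 and Themis between the lymphoma groups at -0.13. The cause was not tested.

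With each library left out, values spanned, between the lymphoma groups, -0.14 to 0.087 for Cd247, -0.067 to 0.38 for Cd3d, -0.15 to 0.22 for Cd3e, -0.11 to 0.19 for Themis and -0.19 to 0.037 for Zap70. Against WT they spanned -0.27 to 0.13 for Cd3e and -0.29 to 0.023 for Lck in Atm-/- lymphomas. In Rag2c/c p53-/- lymphomas they spanned -0.33 to 0.12 for Cd3e, -0.055 to 0.39 for Lat, -0.15 to 0.18 for Lck and -0.13 to 0.057 for Zap70, and also -1.20 to -0.95 for Lcp2 and -1.02 to -0.68 for Cd3g. No paired analysis was made, since the groups came from different mice. Depth limits what is shown for Cd3e, Cd3d and Cd3g, which were high in shallow libraries.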
